A study of Macaca fascicularis with 6 samples.

Results

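Airway basal cells are the cells of the bronchial epithelium that sit on the basement membrane, and 144 of the 25388 cells analysed from the lungs of cynomolgus monkeys (Macaca fascicularis) were taken as such. The members were chosen on their measured values: at least 2 of the transcripts of KRT5, KRT15, KRT17 and TP63 had to be detected, with KRT5 or KRT15 among them. Cells with any unique molecular identifier (UMI, 1 counted RNA molecule) of the leukocyte gene PTPRC, the endothelial gene PECAM1 or the alveolar type 1 gene AGER were left out. Cells with 50 or more UMIs of ITLN1, a mesothelial gene in these libraries, or 10 or more of SFTPC, the surfactant gene of alveolar type 2 cells, were left out as well. All cells had more than 500 and fewer than 5000 genes and at most 25% of their UMIs in the 13 mitochondrial genes, which 25388 of 35133 barcodes met.

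Basal cells are the stem cells of the pseudostratified airway epithelium: they divide to renew themselves and give rise to secretory (club and goblet) and ciliated cells. They attach to the basement membrane through hemidesmosomes, carry the keratin pair KRT5 and KRT14, and need the transcription factor TP63. In allergic airway disease they are known as a source of IL33, a nuclear alarmin that is released from damaged epithelium and acts on type 2 lymphoid cells and mast cells.

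Dissociated lung tissue was measured by 10x Genomics 3' single-cell RNA sequencing in 6 male monkeys aged 3 to 5 years, 1 library per animal. The 3 asthma monkeys (replicates 8, 10 and 11) were sensitized by injection of Ascaris suum antigen, a roundworm allergen, with adjuvant and later challenged with it through the nose, whereas the 3 control monkeys (replicates 1, 2 and 3) received saline. The model thus rests on 1 allergen in young males. The labels give the tissue as lung, while the paper speaks of large airways in some places and of parenchyma in others. How much airway each piece held is not given in the sources used here, so airway content and group cannot be told apart.

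One library stood apart before any comparison. The libraries of controls 1, 2 and 3 gave 10, 2 and 87 basal cells, and those of asthma 8, 10 and 11 gave 10, 22 and 13. Control 3 alone therefore held 60.4% of all basal cells, and control 2, with 2 cells, gave next to no information on them. The libraries held 3511 to 4719 cells and 29014556 to 41489879 UMIs each. The UMIs that came from basal cells numbered 78358, 13008 and 846463 in controls 1, 2 and 3 and 89355, 196547 and 111915 in asthma 8, 10 and 11. Depth per cell was closer, with median UMIs per basal cell of 7510, 6504 and 8746 in the controls and 9181, 7808 and 5754 in the asthma libraries. The median share of mitochondrial UMIs in basal cells was 1.04%, 4.65% and 5.17% in the controls and 8.41%, 6.92% and 5.59% in the asthma libraries, and no control reached an asthma library. The part of this difference in the gene comparisons that follow was not tested. Across the 6 libraries 82 cell barcodes occurred more than once, as did the barcodes of 2 basal cells, but no barcode was shared between basal cells. The doublet caller marked 3 basal cells, all in control 3, and they were kept.

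The name was checked against genes that the rule did not use. S100A2, a calcium-binding protein of basal layers, was found in 96.5% of members at 1345 CPM (UMIs per 1000000 UMIs of the cells summed). It was also found in 18.8% of other cells, at 79.9 CPM. AQP3 stood at 737 against 30.3 CPM and F3 at 392 against 17.6 CPM. KRT14, DLK2, NGFR and SOX2 are described further on. The adhesion genes ITGA6, ITGB4, COL17A1 and LAMB3, also listed as support, were not among the genes with the highest ratios to other cells. Against the name, 4 members had at least 50 UMIs of secretoglobins, the products of club cells, and 3 of these had at most 4 UMIs of the 4 markers together. Of the markers of the rule, given as a description, all 4 were detected in 120 of the 144 cells, 3 in 15 cells and 2 in 9 cells. KRT15, a keratin of basal layers, was found in 144 cells with a median of 35 UMIs, KRT5 in 140 with a median of 26, KRT17, a keratin of basal and injured epithelium, in 130 with a median of 5, and TP63 in 129 with a median of 3. The median of KRT5 and KRT15 together was 66.5 UMIs per cell but only 3 in the 9 cells that entered on 2 markers. Just outside the threshold lay 35 cells in which only KRT5 or KRT15 was found, with a median of 1 UMI and a highest value of 4. Another 55 cells had the markers but were excluded, 40 of them for a UMI of PTPRC, 13 for PECAM1 and 8 for AGER, and these had a median of 59 UMIs of KRT5 and KRT15.

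The summed transcripts showed the same genes in each library. Levels are given as CPM, which for 3' counts needs no correction for transcript length. KRT15 stood at 3433, 3844 and 4071 CPM in controls 1, 2 and 3 and at 4365, 3709 and 5549 CPM in asthma 8, 10 and 11. KRT5 stood at 2578, 1230 and 3620 CPM in the controls and at 4499, 2732 and 3905 CPM in the asthma monkeys. TP63 stood at 191, 76.9 and 387 CPM and at 459, 270 and 411 CPM, respectively. All 3 genes spanned overlapping ranges in the groups. The members held 73.8% of the UMIs of KRT15, 73.4% of those of KRT5, 75.5% of those of KRT17 and 65.9% of those of TP63 in all cells, as the rule made likely.

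**Figure D1:**
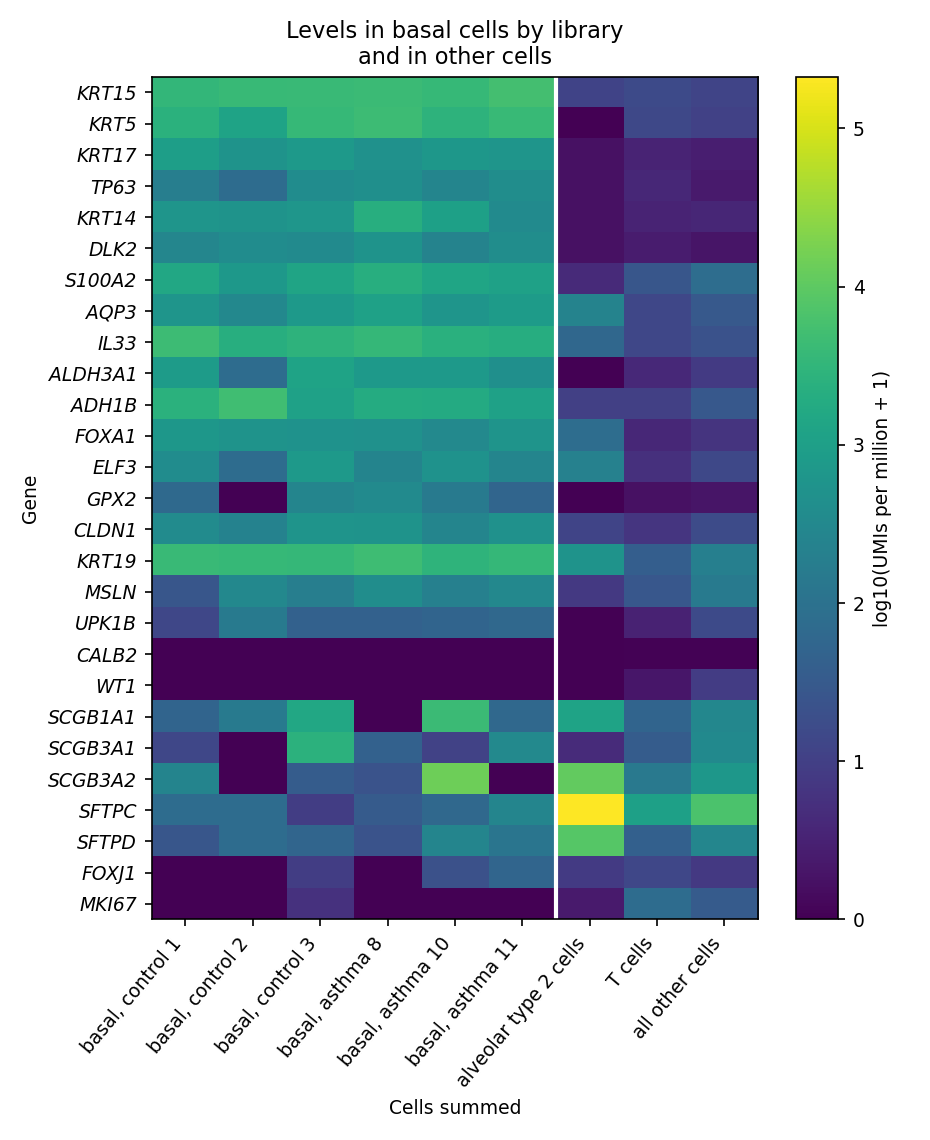
Levels of 27 genes (rows) as log10 of CPM plus 1, in the basal cells of each of the 6 libraries and, right of the white line, in alveolar type 2 cells, T cells and all other cells summed over the libraries. KRT5, KRT15, IL33 and S100A2 were bright in all 6 basal columns, CALB2 and WT1 were at 0 in them, and the secretoglobins varied most between libraries.

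Beyond the markers of the rule, the genes with the highest ratio of basal cells to all other cells (10 CPM added to both, with no test, since the rule chose the cells) included an alarmin, keratins, enzymes and transcription factors. IL33 stood at 2768 CPM in basal cells and 20.9 CPM elsewhere, an 89.8-fold difference, and was found in 97.9% of members. The basal cells made up 144 of 25388 cells and held 50% of all IL33 UMIs. KRT14, the partner keratin of KRT5, had 767 against 2.81 CPM (60.6-fold) and was found in 55.6% of members, and DLK2, a non-canonical Notch ligand, had 349 against 1.01 CPM (32.6-fold).

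The 15 genes with the highest ratios also held 4 enzymes, with no theme tested. ALDH3A1, an aldehyde dehydrogenase of barrier epithelia, had 1030 CPM against 6.94 CPM in other cells (61.4-fold). ADH1B, an alcohol dehydrogenase, had 1378 against 28.6 CPM (35.9-fold), FMO2, a flavin monooxygenase of the lung, 1028 against 42.6 CPM (19.7-fold), and GPX2, an epithelial glutathione peroxidase, 226 against 1.04 CPM (21.4-fold). These genes differed in how evenly they were spread: ADH1B was found in 98.6% of members and GPX2 in 61.8%. Of the transcription factors there, FOXA1, a pioneer factor of endoderm, was at 502 against 5.22 CPM (33.7-fold) and ELF3, an epithelial ETS factor, was at 595 against 13.1 CPM (26.2-fold). The water channel AQP5 had 654 against 15.9 CPM (25.6-fold) and the tight junction gene CLDN1 502 against 15.4 CPM (20.1-fold). Several of these genes were not particular to basal cells. Club cells, 22 cells with at least 50 secretoglobin UMIs, had more ELF3 (856 CPM) and nearly as much FMO2 (993 CPM) and AQP5 (585 CPM). They had 518 CPM of ALDH3A1 and 455 CPM of ADH1B. FOXA1 (196 CPM), GPX2 (106 CPM) and CLDN1 (58.9 CPM) were lower there.

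Some known basal genes were patchy. NGFR, the low-affinity nerve growth factor receptor that is often used to sort human basal cells, was found in 46 of 144 cells (31.9%), and SOX2, a factor of the proximal airway, in 57.6%. Thinned at random to 1500 UMIs a cell, so that depth was equal, NGFR was found in 7.69% of basal and 1.32% of T cells and SOX2 in 13.99% of basal and 0% of T cells. KRT14 was found in 5, 1 and 51 basal cells of controls 1, 2 and 3 and in 8, 11 and 4 of asthma 8, 10 and 11. Thinned in the same way, KRT14 was found in 30%, 50% and 40.2% of the control cells and in 80%, 40.9% and 16.7% of the asthma cells, against 0.109% of T cells, a difference of group means of 5.78 percentage points (two-sided exact permutation test, p = 0.8, where the smallest p that 3 against 3 libraries allow is 0.1). The highest and the lowest share at 1500 UMIs were both in asthma monkeys. At that depth 1 basal cell of asthma 11 was too shallow and was left out. The difference was 18.2 percentage points at 1000 UMIs and 0.72 without thinning.

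RNA of other cell types was low but not absent, except for the alveolar type 1 and club lists. Alveolar type 1 genes, led by AQP5, summed to 1838, 461 and 1356 CPM in basal cells of controls 1, 2 and 3. They summed to 1410, 1353 and 1394 CPM in those of asthma 8, 10 and 11, against 799 CPM in all other cells. AGER was at 0 by the rule. Club genes stood at 5457 CPM in members and 1303 CPM in other cells, and a few members carried their secretoglobins. Of 10 T and NK cell genes 8 were detected, led by GZMB and NKG7 and with CD3E and IL7R at 0, and they summed to 128, 0 and 57.9 CPM in basal cells of the controls and 78.3, 25.4 and 17.9 CPM in those of the asthma monkeys. Of 10 endothelial genes 5 were detected, 85.5% of their UMIs from RAMP2 and with CDH5 and CLDN5 at 0, summing to 153, 76.9 and 100.4 CPM and to 157, 81.4 and 152 CPM. Of 11 fibroblast and smooth muscle genes 6 were detected, 71% of their UMIs from DCN and with ACTA2 and DES at 0, summing to 63.8, 0 and 67.3 CPM and to 168, 50.9 and 116 CPM. Cells with a UMI of PTPRC or PECAM1 had been left out by the rule, which favours low values of leukocyte and endothelial genes. Of 15 myeloid genes in the files 15 had at least 1 UMI, and together they stood at 817, 231 and 354 CPM in the basal cells of the controls and 414, 494 and 313 CPM in those of the asthma monkeys, with S100A9 the most abundant, against 19624 CPM in all other cells. Of 8 alveolar type 2 genes 8 were detected, summing to 140, 231 and 117 CPM and to 56.0, 412 and 402 CPM, with SFTPD the most abundant. SFTPC was found in 4.9% of basal cells and 15.7% of T cells, which do not make it, both thinned to 1500 UMIs. Without thinning the median depth was 8500 UMIs in basal cells and 3314 to 4942 UMIs in the T cells of the libraries. The rule itself capped SFTPC at 9 UMIs per member, so nothing is read from the lower share, and the highest member had 6.

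Mesothelial cells also carry keratins, and their genes were checked separately. MSLN, which encodes mesothelin, was found in 81 basal cells (56.2%) and stood at 25.5, 308 and 188 CPM in controls 1, 2 and 3 and at 414, 209 and 304 CPM in asthma 8, 10 and 11. Thinned to 1500 UMIs a cell, it was found in 24.5% of basal and 1.05% of T cells. The shares of basal cells were 20%, 50% and 16.1% in the controls and 70%, 27.3% and 41.7% in asthma, a difference of 17.6 percentage points (exact permutation test, p = 0.4). It was 27.2 points at 1000 UMIs and 34.9 points without thinning, where all 10 basal cells of asthma 8 held MSLN, each at the smallest p that 3 against 3 libraries allow (exact permutation test, p = 0.1). T cells of the same libraries had 3.11, 6.54 and 7.82 CPM and 58.5, 44.3 and 28 CPM. Club cells, the secretory cells with at least 50 secretoglobin UMIs, had 872 CPM of MSLN. The defining mesothelial genes CALB2 and WT1 were found in 0 of 144 basal cells, which allows up to 2.08% of cells with a UMI but sets no limit on cells that express them, UPK3B had 3 UMIs and ITLN1 38. UPK1B, a uroplakin, had 62. Of 10 mesothelial genes 6 were detected, and they summed to 255, 461 and 241 CPM in the controls and 504, 331 and 384 CPM in the asthma monkeys, 72.3% of it MSLN. With MSLN and UPK3B required to be at 0, 8, 1 and 41 basal cells of controls 1, 2 and 3 and 0, 6 and 6 of asthma 8, 10 and 11 were left. Only control 3 then reached the 10 cells per library of the gene test. That test was not run here with libraries of fewer cells. The part of mesothelial RNA in the group values of MSLN was not tested.

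The first question was whether asthma changed how many basal cells the lung yielded. They made up 0.222%, 0.0570% and 2.14% of all cells in controls 1, 2 and 3 and 0.232%, 0.466% and 0.304% in asthma 8, 10 and 11. The exact 95% Clopper-Pearson interval, which covers counting error only, was 1.72% to 2.63% for control 3 and reached at most 0.705% in any other library. Control 3 thus lay above all others. Controls 1 and 2 lay below the asthma libraries, but control 1 and asthma 8 were within each other's intervals (0.106% to 0.407% and 0.111% to 0.427%), and control 1 lay above asthma 8 with a mitochondrial limit of 10% (0.211% against 0.153%) and without a maximum of genes (0.282% against 0.221%). Over cells without PTPRC, control 1 (1.35%) lay above asthma 8 (1.01%) and asthma 11 (0.874%). With MSLN and UPK3B at 0 it lay at 0.177%, above all 3 asthma libraries (0%, 0.127% and 0.140%). The means were 0.806% ± 1.16 (SD, n = 3) in controls and 0.334% ± 0.120 (SD, n = 3) in asthma, a difference of -0.472 percentage points that did not pass a two-sided exact permutation test (p = 1). Without control 3 the difference was 0.195 percentage points in the other direction (exact permutation test, p = 0.2), so no direction could be given.

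Among epithelial cells the picture was the same. Basal cells were 6.71%, 6.67% and 69.6% of the 149, 30 and 125 epithelial cells of controls 1, 2 and 3, and 7.30%, 13.2% and 6.5% of the 137, 167 and 200 of asthma 8, 10 and 11. Outside control 3 the shares overlapped between groups. The means were 27.7% ± 36.3 (SD, n = 3) and 8.99% ± 3.64 (SD, n = 3), with a difference of -18.7 percentage points (exact permutation test, p = 0.8), and without control 3 it was 2.30 percentage points (p = 0.7, exact). Control 3 had 13 alveolar type 2 cells, fewer than the 21 to 93 of the other libraries. Whether that library came from tissue with more airway was not tested.

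**Figure D2:**
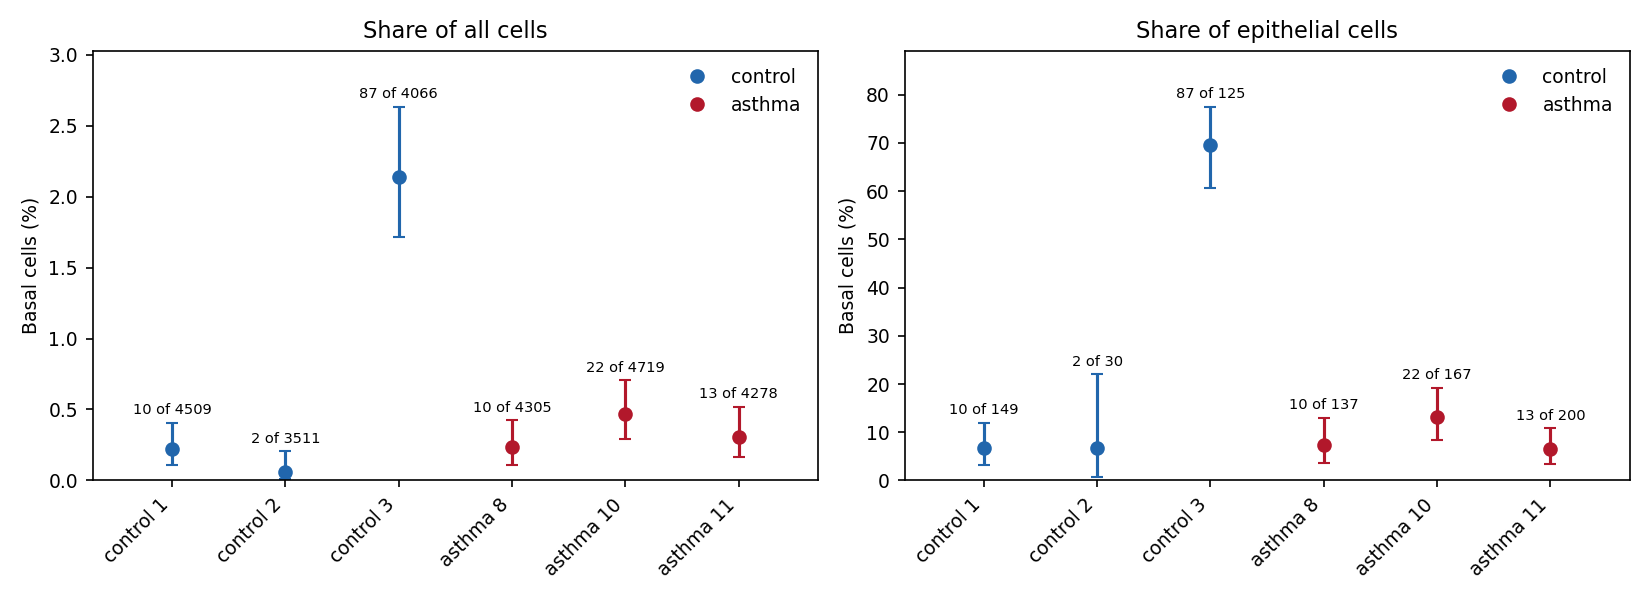
Basal cells as a percentage of all cells (left) and of epithelial cells (right) in each library, with exact 95% binomial intervals and the counts above each point. Control 3 lay at 2.14% and 69.6%, and the other 5 libraries lay at most at 0.466% and 13.2%.

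The second question was which genes of basal cells differed between asthma and control. Counts were summed per library and tested with edgeR's quasi-likelihood test in controls 1 and 3 against asthma 8, 10 and 11, with control 2 left out because it had 2 basal cells. Of 1947 genes tested, 0 passed an adjusted p of 0.05 with an absolute log2 fold change over 0.25 (0% called), 87 had an unadjusted p under 0.05 (43 higher and 44 lower in asthma), and DESeq2 called 2 of 13396, CXCL8 and a gene without a symbol. The fold changes were centred, with a median of 0.01 on the log2 scale, 998 positive and 949 negative. In 189 genes (9.71%) every asthma library lay above both controls and in 210 (10.8%) below both. These shares are the background for the counts of each gene group, and group members chosen with earlier results known were given no test of their own. The p-values measure the spread between animals with 1 library each, and differences described in the following paragraphs are values that did not pass.

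**Figure D3:**
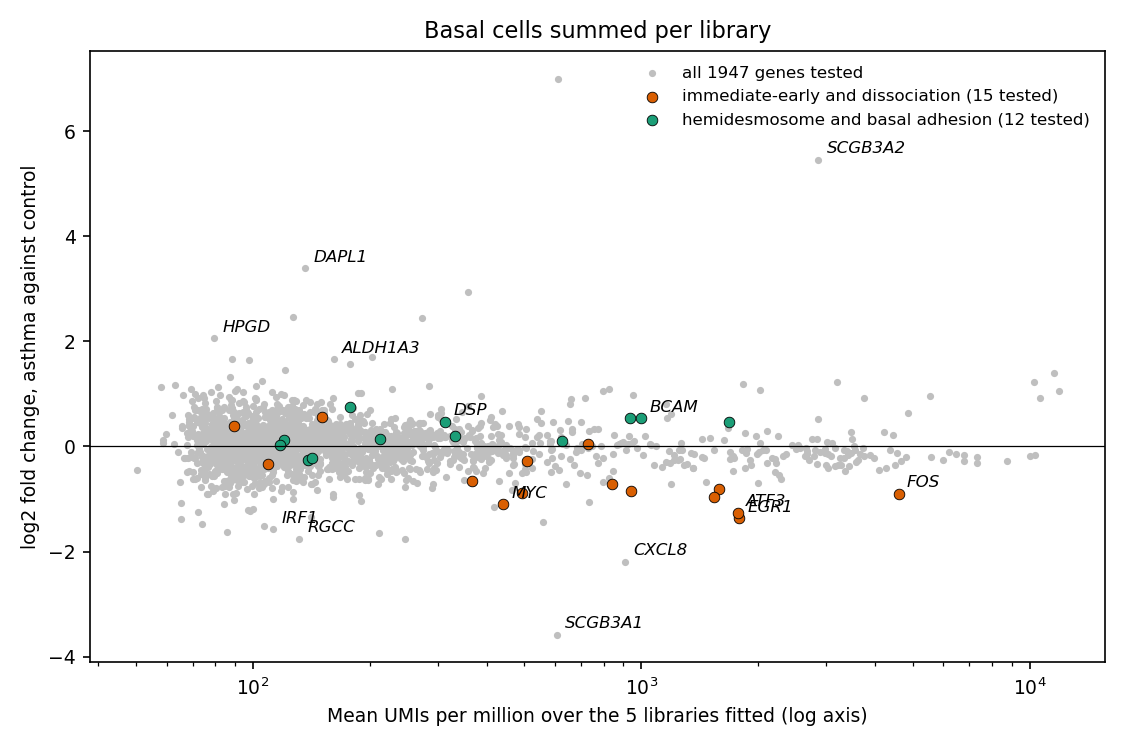
Log2 fold change of asthma against control in summed basal cells (vertical) against mean CPM over the 5 libraries fitted (horizontal, log axis), 1 point for each of 1947 genes. Immediate-early and dissociation genes (orange) lay mostly below 0 and hemidesmosome and basal adhesion genes (green) mostly above, and 0 genes passed the adjusted threshold.

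The 4 markers of the rule are given as a description, since cells were chosen on them. The log2 fold change of asthma against control was 0.27 for KRT5, 0.28 for KRT15, 0.28 for TP63 and -0.51 for KRT17. KRT17 was 957, 538 and 753 CPM in the controls and 492, 672 and 599 CPM in asthma. Without control 1 the value of KRT5 was -0.02 and that of KRT15 0.09. Of the basal stem cell and transcription factor genes 15 of 24 in the files were tested, 8 with positive and 7 with negative values, and their median of 0.02 was next to that of all genes.

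Adhesion genes had mostly positive fold changes, without a gene that passed. Of 12 hemidesmosome and basal adhesion genes tested, 10 had positive values and 2 negative, 4 lay higher in every asthma library than in controls 1 and 3 and 0 lay lower, and the median was 0.17 on the log2 scale. CD9, a tetraspanin, was 1391, 1461 and 1362 CPM in controls 1, 2 and 3 and 2149, 1608 and 1912 CPM in asthma 8, 10 and 11 (log2 fold change 0.47). BCAM, a laminin receptor, was 727, 692 and 849 CPM and 1063, 1068 and 1296 CPM (0.53). Both genes were higher in all 3 asthma monkeys than in all 3 controls, but neither passed. DST, which encodes the hemidesmosome plakin, stood at a log2 fold change of 0.54 and JUP, plakoglobin of junctions, at 0.75. The summed level of the list was 4798, 4997 and 5387 CPM in basal cells of the controls and 7095, 5703 and 7256 CPM in those of asthma, but T cells showed the same order at 916, 822 and 846 CPM and 1037, 1071 and 1113 CPM. In alveolar type 2 cells it was 1945, 2565 and 2578 CPM and 2817, 3571 and 2509 CPM, with overlap. SDC1, a syndecan of the epithelial surface, was 102, 154 and 99.2 CPM in controls and 179, 148 and 223 CPM in asthma (0.85), where asthma 10 lay just under control 2.

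Of the alarmins and epithelial cytokines listed, IL33 alone was abundant enough to test. It stood at 4467, 2229 and 2728 CPM in controls 1, 2 and 3 and at 3525, 2356 and 2064 CPM in asthma 8, 10 and 11. The ranges overlapped, and the log2 fold change was -0.40 with a standard error of 0.32 (edgeR, adjusted p = 0.969). Alveolar type 2 cells had at most 140 CPM of it in any library. Thinned to 1500 UMIs, IL33 was found in 90%, 100% and 95.4% of the control and 90%, 77.3% and 91.7% of the asthma basal cells, against 0.403% of T cells, and the difference of means of -8.82 percentage points did not pass (exact permutation test, p = 0.3) and was 17.4 percentage points in the other direction at 1000 UMIs. TSLP, another epithelial alarmin, was found in 0 of 144 cells, which allows up to 2.08% of cells with a UMI and 2.25 CPM but sets no limit on cells that express it, and IL25 had 3 UMIs. Of the IL-13 response genes, POSTN and CCL26 were at 0 in all basal cells, and only IL13RA1, a chain of the IL-13 receptor, was abundant enough to test (log2 fold change 0.46, not called).

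The neutrophil chemokine CXCL8 had the smallest p of the genes tested. It stood at 1876, 0 and 1569 CPM in controls 1, 2 and 3 (147, 0 and 1328 UMIs) and at 436, 478 and 179 CPM in asthma 8, 10 and 11 (39, 94 and 20 UMIs). The 3 asthma libraries lay below controls 1 and 3 but above the 2 cells of control 2. The log2 fold change was -2.19 with a standard error of 0.40 (edgeR, unadjusted p = 0.000304, adjusted p = 0.361), DESeq2 called it with -2.20 (adjusted p = 4.45e-04), and it was -2.28 without control 3 and -1.80 with control 2 added. Thinned to 1500 UMIs, it was found in 60%, 0% and 51.7% of control and 20%, 27.3% and 8.33% of asthma cells, against 2.93% of T cells (difference -18.7 percentage points, exact permutation test, p = 0.4). The difference was -10.7 percentage points at 1000 UMIs and -9.46 without thinning.

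Immediate-early genes, which are switched on within minutes by growth factors, stress or tissue dissociation, had mostly negative fold changes. Of 23 in the files 15 were tested, 12 had negative values and 3 positive, 8 lay below both controls in every asthma library, 7 had an unadjusted p under 0.05, 0 passed, and the median was -0.80 on the log2 scale. FOS stood at 6955, 4536 and 5881 CPM in controls 1, 2 and 3 and at 3111, 4126 and 2922 CPM in asthma 8, 10 and 11. Every asthma library lay below every control. Its log2 fold change was -0.90 with a standard error of 0.24 (edgeR, adjusted p = 0.598) and -0.98 without control 3. EGR1, a zinc finger factor of the same early wave, stood at 3152, 1538 and 2545 CPM and at 1007, 1414 and 831 CPM, a log2 fold change of -1.36 (adjusted p = 0.384), and again no asthma library reached a control. ATF3, a stress-induced factor, was 3025, 1614 and 2489 CPM and 985, 1643 and 733 CPM (-1.26, adjusted p = 0.682), where asthma 10 lay just above control 2.

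The same genes varied with the library in other cells. The summed level of the immediate-early list was 23546, 12992 and 21402 CPM in the basal cells of controls 1, 2 and 3 and 10788, 15264 and 9972 CPM in those of asthma 8, 10 and 11. In T cells it was 12874, 10262 and 13594 CPM and 10541, 14002 and 7524 CPM, and in alveolar type 2 cells 6129, 1730 and 8566 CPM and 2217, 6676 and 2566 CPM. In all 3 classes asthma 10 was the highest of the asthma libraries and control 2 the lowest of the controls. The part of dissociation time or handling in these values was not tested.

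The IL-17 signaling list, a pathway that the study examined in epithelium, shared members such as FOS with it. Of 44 in the files 8 were tested, 7 had negative values and 1 positive, 4 lay below both controls in every asthma library, and the median was -0.85. The sum of the whole list in basal cells was 13132, 7303 and 12318 CPM in the controls and 6379, 7459 and 5719 CPM in asthma. FOS alone gave 49.2% of the UMIs of the list in members. In T cells the sum was 6409, 6025 and 6939 CPM in controls and 4341, 6579 and 4106 CPM in asthma. In alveolar type 2 cells it was 5766, 2037 and 11960 CPM and 3569, 6531 and 3381 CPM. CXCL1, another neutrophil chemokine, was 51.0, 384 and 261 CPM in controls 1, 2 and 3 and 123, 35.6 and 62.6 CPM in asthma (log2 fold change -1.51, edgeR adjusted p = 0.969), so the groups overlapped. Of CXCL6 the basal cells held 38.5% of all UMIs in the series, but 88.5% of those came from control 3.

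**Figure D4:**
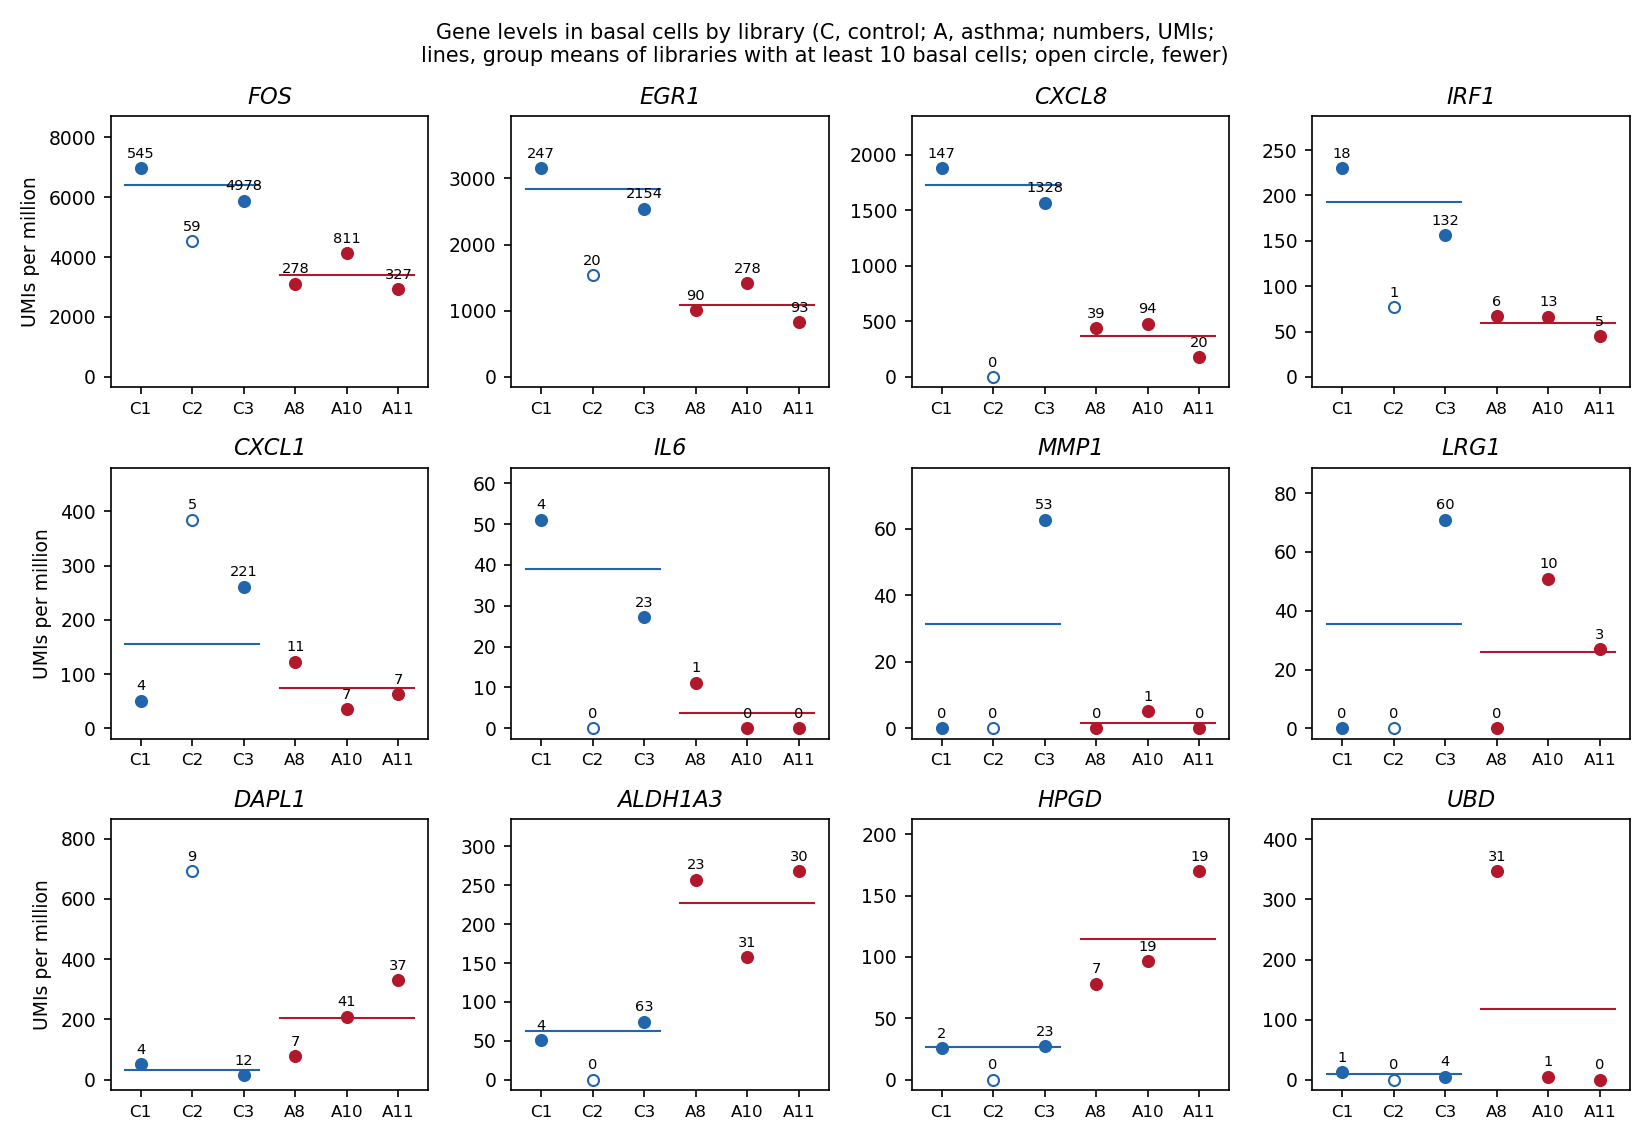
Levels of 12 genes in summed basal cells of each library in CPM, with the UMIs counted printed at each point and group means of the libraries with at least 10 basal cells as lines. FOS and EGR1 lay lower in all 3 asthma libraries than in the controls, MMP1 rested on the 53 UMIs of control 3, and UBD on the 31 UMIs of asthma 8.

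Further genes below both tested controls in every asthma library included several regulators. IRF1, an interferon-response factor, was 230, 76.9 and 156 CPM in controls and 67.1, 66.1 and 44.7 CPM in asthma (log2 fold change -1.57, edgeR adjusted p = 0.482). RGCC, a cell cycle regulator, was 306, 76.9 and 164 CPM and 44.8, 61.1 and 80.4 CPM (-1.75, adjusted p = 0.406). In IRF1 the lower of the 2 tested controls lay above every asthma library, and the single UMI of control 2 lay above them as well. DNAJB1, a heat shock co-chaperone, had a log2 fold change of -1.16, CAVIN2, a caveolar protein, -1.44 (-0.79 without a maximum of genes), UBE2S, a ubiquitin-conjugating enzyme of mitosis, -1.33 and PLK2, a stress-induced kinase, -1.24, with adjusted p of 0.482 to 0.710. The heat shock list as a whole had 5 positive and 4 negative values of 9 tested, with a median of 0.18.

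Genes above both tested controls in every asthma library came from other families. DAPL1, a gene of early epithelial differentiation, was 51.0, 692 and 14.2 CPM in controls 1, 2 and 3 and 78.3, 209 and 331 CPM in asthma 8, 10 and 11. The 9 UMIs of the 2 cells of control 2 thus gave the highest value of all. The log2 fold change was 3.39 with a standard error of 0.65 without that library (edgeR, adjusted p = 0.361) and 2.36 with it, and DAPL1 passed without asthma 8 (3.71, adjusted p = 0.00977) and without control 1 (3.78, adjusted p = 0.0257) but not without control 3 (2.05, adjusted p = 0.880) or asthma 11 (3.08, adjusted p = 0.524). Without control 1 or control 3 the control arm is 1 library, which is assumed to vary like the asthma libraries. It was found in 10%, 0% and 0% of control and 30%, 27.3% and 33.3% of asthma cells thinned to 1500 UMIs, against 0% of T cells. The difference of 26.9 percentage points had the smallest p these libraries allow (exact permutation test, p = 0.1). It was -26.6 percentage points at 1000 UMIs, where both cells of control 2 held a DAPL1 UMI. Without thinning it was 13.8 percentage points (exact permutation test, p = 0.6).

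ALDH1A3, which makes retinoic acid, was 51.0, 0 and 74.4 CPM in controls and 257, 158 and 268 CPM in asthma, above every control in all 3 asthma libraries (log2 fold change 1.66, standard error 0.34, edgeR adjusted p = 0.361). HPGD, which inactivates prostaglandins, was 25.5, 0 and 27.2 CPM and 78.3, 96.7 and 170 CPM (2.06, adjusted p = 0.482), and its log2 fold change was 1.12 without a maximum of genes (adjusted p = 0.999). GADD45G, a growth arrest gene, was 51.0, 76.9 and 109 CPM and 134, 534 and 188 CPM (1.70, adjusted p = 0.928), and its log2 fold change was 0.75 without asthma 10 and 2.60 without control 3. The 2 cells of control 2 held 13008 UMIs, too few to read an order from the values of 0 for ALDH1A3 and HPGD. GADD45G lay lower there than in the asthma libraries. None of these genes passed. The mitochondrial gene CYTB was 3331, 12146 and 8176 CPM and 16004, 13824 and 9936 CPM (1.22, adjusted p = 0.928), next to the low mitochondrial share of control 1, and its log2 fold change was 0.66 without control 1 and 2.05 without control 3. RASD1, a Ras-related protein, had a log2 fold change of 1.57, which was 0.57 without asthma 10. VPS4B, an ATPase of endosomal sorting, had 1.03 and GNG5, a G protein subunit, 0.84.

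Genes that the paper discusses for basal cells, or for the epithelium without a subtype (such as FOS, CXCL8, CTNNB1 and ACTB), were followed in every library. Of 18 such genes 8 were abundant enough to test, 6 with negative and 2 with positive values and a median of -0.53. They had been chosen on these same samples, so their direction is not independent evidence. MYC, a growth factor-induced transcription factor, was 868, 231 and 456 CPM in controls and 168, 341 and 375 CPM in asthma (log2 fold change -1.09, standard error 0.37, edgeR adjusted p = 0.928), with control 2 inside the asthma range. ACTB, the cytoplasmic actin, was 2974, 1999 and 2658 CPM and 1645, 2539 and 1474 CPM (-0.55). CTNNB1, beta-catenin, had a log2 fold change of -0.52, which was -0.79 without control 1 and -0.0098 without control 3. KRT19, a keratin of simple epithelia, had -0.03.

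The others were counted in few cells. MMP1, an interstitial collagenase, had 53 UMIs in control 3 and 1 in asthma 10 across 18 cells, 23 of them in a single cell. CXCL10, an interferon-induced chemokine, had 14 UMIs in control 3 and 1 in asthma 11. IL6, an acute-phase cytokine, had 4, 0 and 23 UMIs in the controls and 1, 0 and 0 in asthma. LRG1, a leucine-rich glycoprotein of inflammation, had 0, 0 and 60 UMIs and 0, 10 and 3. Control 3 gave 98.1% of the UMIs of MMP1, 93.3% of CXCL10, 82.1% of IL6 and 82.2% of LRG1, next to its 60.4% of the cells. UBD, a ubiquitin-like protein, had 31 of its 37 UMIs in asthma 8, and 75.7% of all its UMIs came from 1 cell. IKBKE, a kinase of innate signaling, had 11 UMIs in 11 cells.

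Secretory genes were carried by a few members. The secretoglobins SCGB1A1, SCGB3A1 and SCGB3A2, products of club cells, summed to 7201 UMIs, of which controls 1, 2 and 3 held 25, 2 and 3554 and asthma 8, 10 and 11 held 6, 3571 and 43. A single cell of asthma 10 had 3347 of them (46.5%) beside 1 UMI of KRT5 and 2 of KRT15. A cell of control 3 had 2251 (31.3%) with no KRT5, 3 KRT15 and 1 KRT17. Only 1 of the 4 cells with at least 50 secretoglobin UMIs had all 4 basal markers, with 17 UMIs of KRT5, 14 of KRT15, 5 of KRT17 and 3 of TP63. The other 140 members had a median of 0. The log2 fold changes in asthma were 5.46 for SCGB3A2 (standard error 2.49) and -3.58 for SCGB3A1 (standard error 1.32). They therefore rested on a few cells of asthma 10 and control 3, and neither passed in the main fit. With a filter of at least 1 count both were called, at 5.53 and -3.80. Without control 1 the value of SCGB3A1 was -4.57. MUC5B, a gel-forming mucin, was at 0 in all members against 114 CPM in club cells.

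Few basal cells were cycling by their transcripts. MKI67, a proliferation antigen, was found in 1 cell with 4 UMIs. TOP2A, a mitotic topoisomerase, had 46 UMIs, 44 of them in 1 cell, and CENPF, a kinetochore protein, 31 UMIs in 8 cells, 21 in 1 of them. At least 3 of 10 mitotic genes were found in 2 members, 1 in control 1 and 1 in control 3. With counts this small the share of cycling cells could not be compared between groups.

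Clustering split the members into 4 groups that followed the libraries in part, and they stay numbered because no markers named them. Cluster 1 had 49 cells, 43 of them from control 3 and 4 from control 1, and was led by CXCL1 at 382 CPM against 110 CPM in the other members, with IL6, CXCL10, MMP1 and the growth factor AREG (102 against 38.7 CPM) further down. Most of its cells held none of a given gene: CXCL1 was found in 34.7%, AREG in 26.5%, IL6 in 18.4%, MMP1 in 14.3% and CXCL10 in 10.2%. Cluster 2 had 38 cells, 27 from control 3, and was led by CENPF, UBE2C and STMN1, a microtubule regulator (269 against 45 CPM), and it also held S100A8 and SRGN, which are leukocyte genes. STMN1 was found in 34.2%, CENPF and SRGN each in 18.4%, and UBE2C and S100A8 each in 10.5% of its cells. Cluster 3 had 37 cells, of which asthma 8, 10 and 11 gave 8, 11 and 12 and the controls 2 each. Its leading genes were CLC, a gene of eosinophils (128 against 0.982 CPM), UBD, SPINK5, a protease inhibitor of squamous epithelium (47.9 against 0.982 CPM), and DAPL1 (211 against 43.2 CPM). A few cells carried the first 3, since CLC was found in 16.2%, UBD in 10.8% and SPINK5 in 13.5% of its cells, and DAPL1 in 56.8%. Cluster 4 had 20 cells, 15 from control 3 and 4 from asthma 10, and was led by SCGB3A2, SCGB1A1 and PIGR, the carrier of secreted IgA (742 against 1.80 CPM). Here too a few cells carried the levels, with SCGB3A2 and PIGR each found in 20% and SCGB1A1 in 55% of its cells, and 2 members held 77.7% of all secretoglobin UMIs.

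KRT5 was found in 100%, 100%, 97.3% and 85% and TP63 in 93.9%, 94.7%, 89.2% and 70% of the cells of clusters 1 to 4. The fourth, with the secretory genes, was thus the lowest for both. Cluster genes are a description, since the same counts made the clusters. In a cluster that came mostly from control 3, library and a state of the cells cannot be told apart. The same holds for library, group and state in cluster 3, where asthma 8, 10 and 11 gave 8, 11 and 12 of 37 cells.

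**Figure D5:**
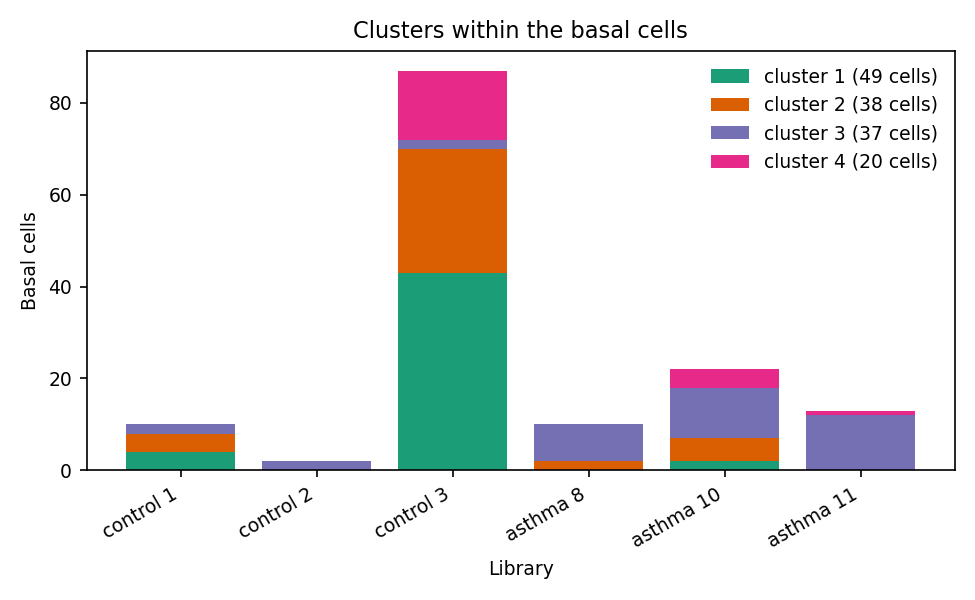
Number of basal cells in each library (bars from 0), coloured by the 4 clusters. Cluster 3 made up 2 of 10, 2 of 2 and 2 of 87 cells in controls 1, 2 and 3 and 8 of 10, 11 of 22 and 12 of 13 in asthma 8, 10 and 11, and control 3 held 43 of the 49 cells of cluster 1.

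The last question was whether the response of basal cells differed from that of alveolar type 2 cells, the surfactant-making cells of the alveoli. In 1 edgeR fit with the library as a block, over the 5 libraries with at least 10 cells of each class, the asthma effects differed for 5 of 4906 genes (0.102%), while 219 had an unadjusted p under 0.05. GADD45G was lower in the alveolar cells of the asthma libraries than in those of controls 1 and 3, at 57.5, 12.3 and 140 CPM in controls and 6.71, 29.5 and 26.5 CPM in asthma (48, 1 and 17 against 2, 23 and 18 UMIs), and higher in basal cells, a difference of 3.98 on the log2 scale (standard error 0.56, adjusted p = 0.00174). CXCL8 differed in the opposite way, with 5.99, 12.3 and 0 CPM in alveolar cells of controls and 73.8, 29.5 and 5.89 CPM in those of asthma, from 0 to 23 UMIs a library, and a difference of -4.71 (standard error 0.69, adjusted p = 0.00244). CLC and CYP2A23 changed direction without control 3. ITLN1 was the last of the 5 and is no finding, since the rules for both classes capped it. The immediate-early genes were not among the 5: FOS was at 1935, 295 and 2356 CPM in alveolar cells of controls and 386, 1563 and 529 CPM in those of asthma, below controls 1 and 3 in every asthma library but above control 2. Club cells numbered 22 in all, with no library reaching 10, and were not fitted.

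Other groups of genes had little that could be tested. Of 12 antioxidant genes 7 had negative and 5 positive values, with a median of -0.13 and 3 below both controls in every asthma library, among them ALDH3A1 (817, 76.9 and 1243 CPM in controls, 772, 717 and 438 CPM in asthma, log2 fold change -0.67) and the ferritin heavy chain FTH1 (2922, 1538 and 2319 CPM against 1522, 1933 and 1322 CPM, -0.69). Of 6 matrix and wound repair genes 5 were negative and 1 positive, with a median of -0.50, SERPINE2, a protease inhibitor, being at 153, 0 and 671 CPM in controls and 213, 132 and 62.5 CPM in asthma (-1.76). Of 8 Hippo pathway and YAP target genes 5 were positive and 3 negative (median 0.08), of 4 Notch genes 3 were positive and 1 negative (median 0.29), and of 11 secretory genes 6 were positive and 5 negative (median 0.24). Of the genes counted in this paragraph 0 passed the edgeR test.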

How the data were processed

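Lung tissue was dissociated, red and dead cells were removed, and 10x Genomics 3' v3 libraries were sequenced. The deposited files hold UMI counts per gene and barcode, made by the authors against the macFas6 genome with Cell Ranger, for which the labels' notes give version 2.1.1, the matrix headers 4.0.0 and the paper's methods yet another. Of 28623 genes 21095 had a symbol. Cells were selected as described and summed per library. Members and all 36 gene lists were chosen with earlier results of these data known. Genes were tested with edgeR 4.0.16 (TMM, filterByExpr, quasi-likelihood, Benjamini-Hochberg adjustment) in R 4.3.3 over libraries with at least 10 basal cells, and called where the adjusted p was below 0.05 with a log2 change of more than 0.25 either way. DESeq2 1.42.0 was an alternative. Shares were compared by exact permutation tests over 6 libraries. Clusters came from scanpy 1.11.5 (2000 variable genes, 10 components, 20 neighbours, Leiden resolution 0.8). Doublets were marked at 0.8% per 1000 cells and kept. The tests were tried on simulated data. Alternatives covered filters, markers, denominators, depth and left-out libraries. Genes named were the rule's markers, genes discussed in the paper, 10 up and 10 down by unadjusted p among genes whose groups did not overlap, the 15 highest ratios to other cells and the most abundant of each list. One gene that this rule names is not reported here. Others (CXCL6, JUP, MKI67, TOP2A, CLC, CYP2A23 and leading cluster genes) were chosen after their values were seen. Reads of near-identical copies (the CXCL, KRT, SCGB and CYP2A families) may be split or lost in such counts, so those values are uncertain.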

Additional observations from a re-analysis of the deposited data

Results flagged for a closer look

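In 5 genes the effect of asthma differed between basal and alveolar type 2 cells by the test of the difference itself (edgeR, class by group term with library block), but 1 of them, ITLN1, was capped by the rules that chose the cells, so its test is void. The differences were 7.27 for CLC, 3.98 for GADD45G, -4.71 for CXCL8, -4.83 for ITLN1 and 4.76 for CYP2A23 on the log2 scale. GADD45G was called whichever library was left out, with 3.36 to 4.55. CXCL8 was -8.91 without control 1 (adjusted p = 0.106), where the only control left had 0 UMIs in alveolar cells. CLC had 40 of its basal UMIs in asthma 8 and 1 in control 3. In alveolar cells it had 0, 14 and 31 UMIs in controls 1, 2 and 3 and 133, 0 and 0 in asthma 8, 10 and 11. Its difference was -0.48 without control 3, so the call depended on that library. CLC was not tested without asthma 8, the library where it was high in both classes. CYP2A23, a cytochrome P450, had 40 of its basal UMIs in asthma 10, with a difference of -0.37 without control 3 and 4.41 without asthma 10 (adjusted p = 0.180). ITLN1 stood in T cells at 116, 166 and 63.4 CPM in controls and 815, 546 and 336 CPM in asthma, and was -0.21 without control 1.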

How the results depend on the processing

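The share of basal cells changed direction with 1 library: leaving out each in turn gave differences of -0.847 to 0.195 percentage points of all cells and -29.2 to 2.30 of epithelial cells, the positive value without control 3 both times. Under all other alternatives run for each share its difference stayed negative. The denominator of cells without PTPRC was run for the share of all cells only. For genes, DESeq2 called 2, a filter of at least 1 count 36 of 13398, at least 3 markers with libraries of at least 5 cells 3 (CXCL8, EGR1 and DAPL1), leaving out a library 0 to 3, and the Wilcoxon test across cells, which are not replicates, 20 of 8085. With all 6 libraries, with a mitochondrial limit of 10% and libraries of at least 5 cells, without a maximum of genes, or without marked doublets 0 were called. The settings with at least 5 cells and with all 6 libraries were chosen after seeing the data. The difference between classes had 4 to 12 calls when a library was left out. Of 306 values for 26 named genes 285 kept direction and side of the threshold, 16 passed where they had not, and 5 reversed: KRT5 without control 1 (-0.019 to 0.57 over left-out libraries), KRT19 without asthma 10 or asthma 11 (-0.28 to 0.10), and KRT19 at 0.035 without a maximum of genes and 0.051 with the 10% mitochondrial limit. The difference between classes spanned -0.48 to 7.26 for CLC and -0.37 to 5.25 for CYP2A23, the lowest value of each without control 3. Thinned to 1000 UMIs, the differences in share were 17.4 percentage points for IL33 and -26.6 for DAPL1, both reversed. At least 10 cells per library with 3 markers, with MSLN and UPK3B at 0 or with 10% mitochondrial UMIs, at least 20 cells per library, and club cells were not run. Each left at most 1 control library, although the fits without control 1 or control 3 also had 1 control. No paired analysis was possible because the groups share no replicate numbers. Depth limits any gene under about 2.25 CPM, and 2 basal cells in control 2 leave 2 controls.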
